A study of Polypedilum vanderplanki with 72 samples.

Results

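The genes described here were raised in Pv11 cells without the transcription factor HSF1. In cells given its V3 form they were at most 5/4 of the WT level, and some were far below it. They numbered 51 of 17156 genes in the deposited count table. A gene belonged to them when its mean over the 3 libraries of HSF1-KO was 5 CPM or more, a CPM being a count scaled by the gene count total of its library, and its KO/WT ratio was above 1.5, both in trehalose and after heat shock. In both treatments its V3/WT ratio was also at most 5/4, with no lower limit. Its ratio of heat shock to trehalose in WT was below 2, which left out genes at least 2 times higher after heat shock than in trehalose. No untreated group was sampled, so a gene raised by both treatments could pass. A constant of 0.5 CPM was added to each mean before a ratio was taken. The members were thus selected on measured values, those of the KO, V3 and WT libraries of both treatments, 18 of 72 libraries, and the other 54 did not enter the choice.

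Pv11 is a cell line of the sleeping chironomid Polypedilum vanderplanki. The groups were 7 lines in which an HSF1 form was expressed in HSF1-KO cells, HSF1-KO cells themselves (KO) and unmodified cells (WT). The 7 lines carried the P. vanderplanki isoforms V1, V2, V3, V4 and V5-6 or the Drosophila forms HSF1a (here Dma) and HSF1b (Dmb), and all 7 lack the cells' own HSF1 as KO does. Each was sampled as 3 libraries in 600 mM trehalose, taken at 48 h (T48), and as 3 more when heat shock had lasted 6 h (HS6h). The labels give neither the temperature nor the medium of the heat shock. HS6h and T48 thus differ in duration, and may differ in medium, as well as in heat. The 5 P. vanderplanki lines and WT were also sampled 24 h after rehydration (R24), following 11 days of desiccation, and KO was not among the R24 groups. The labels call the lines clonal and name 1 line per form, so a difference between forms cannot be told apart from a difference between clones. The expression level, promoter and insertion site of the forms are not given in the labels.

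HSF1 is the main activator of heat shock protein genes in animals: under stress it assembles into trimers that bind heat shock elements near its targets. Isoforms made by alternative splicing can differ in how they activate or bind targets. P. vanderplanki larvae survive almost complete loss of water, and Pv11 cells do so when they are first kept in trehalose. The deposited table pairs no gene ID with a name and none of the IDs matched the reference table, so the genes are given by ID with no function, protein or promoter, and the level of HSF1 itself could not be read as a check of the KO label.

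Gene counts per library ran from 3043636 to 8808472, with the range at T48 (3043636 to 5091075) below that at R24 (4951847 to 8808472). No 2 libraries held identical values. Levels are CPM of the highest-counted transcript of a gene and are not set against transcript length, so they compare samples and not genes. In the 51 genes the transcript used held a median of 40.4% of the counts of all transcripts of its gene, from 4.85% to 100%. It held 4.85% in g6095, 7.15% in g14974 and 10.5% in g7940. Differences are log2 values from edgeR's quasi-likelihood test with TMM scaling, given with their standard error (SE). A gene is called where the Benjamini-Hochberg adjusted p over all genes tested is under 0.05. All 51 genes passed the filter on low counts in each fit.

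By the rule, KO/WT ran from 1.51 to 7.02 at T48 (median 1.69) and from 1.51 to 9.02 at HS6h (median 1.92). The ratio was above 2 for 14 genes at T48 and for 21 at HS6h, so most of the set was raised less than 2-fold. Median levels in KO were 36.7 CPM at T48 and 33.2 CPM at HS6h. All 3 KO libraries stood above all 3 WT libraries for 45 of the 51 genes at T48 and for 51 at HS6h, against 16.3% and 30.9% of all genes tested; nothing is read from these counts, because the rule used the same libraries. V3/WT had a median of 0.898 at T48, with 32 genes below WT, and of 0.802 at HS6h, with 41 below WT. The lowest V3/WT ratios were those of g13562, 0.0859 at T48 and 0.0761 at HS6h. Of the 5972 genes with 5 CPM or more in KO at both treatments, 2476 were below WT in V3 at T48 and 2826 at HS6h. The rule capped V3/WT in the same libraries, so nothing is read from these counts either.

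By CPM averaged over the 2 treatments, g7940 was the highest of the 51 in KO. At T48 it had 416, 409 and 409 CPM in KO, against 202, 176 and 179.9 CPM in WT. At HS6h it had 691, 695 and 649 CPM in KO, against 297, 281 and 303 CPM in WT. In V3 it had 152, 161 and 139.6 CPM at T48 and 170.5, 158 and 174 CPM at HS6h. V3 libraries thus lay below every WT library of g7940 at both treatments, in libraries that the rule also used. Its neighbour in ID, g7937, came next by that average, with means of 305 CPM at T48 and 509.7 CPM at HS6h.

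The largest KO/WT ratio that held at both treatments was that of g14974, 7.02 at T48 and 9.02 at HS6h. It was near the floor of detection in WT at T48, with 5.41, 8.98 and 4.93 CPM in KO, against 1.15, 0.311 and 0 CPM in WT. Second was g9572, with a ratio of 4.54 at T48 and 5.32 at HS6h. It had 125.4, 97.6 and 115 CPM in KO at T48, against 28.0, 20.5 and 24.8 CPM in WT. At the other end were g6931, whose lower KO/WT ratio was 1.51, and g15010, also at 1.51. Just outside the threshold stood g16529 and g777, with 1.497 and 1.49. The highest V3/WT ratios inside the limit were 1.247 in g4501 and 1.23 in g14974, and the nearest outside were 1.28 in g12339 and 1.29 in g6099. Without regard to V3, 127 genes met the other conditions of the rule. The 76 of them that exceeded the V3 limit are called the other candidates below and serve as a comparison, since they passed the same limits on KO and WT. They are not a matched control: V3 separated the 2 sets. Their median KO/WT was also higher, 2.02 at T48 and 2.51 at HS6h, against 1.69 and 1.92 in the 51.

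**Figure D1:**
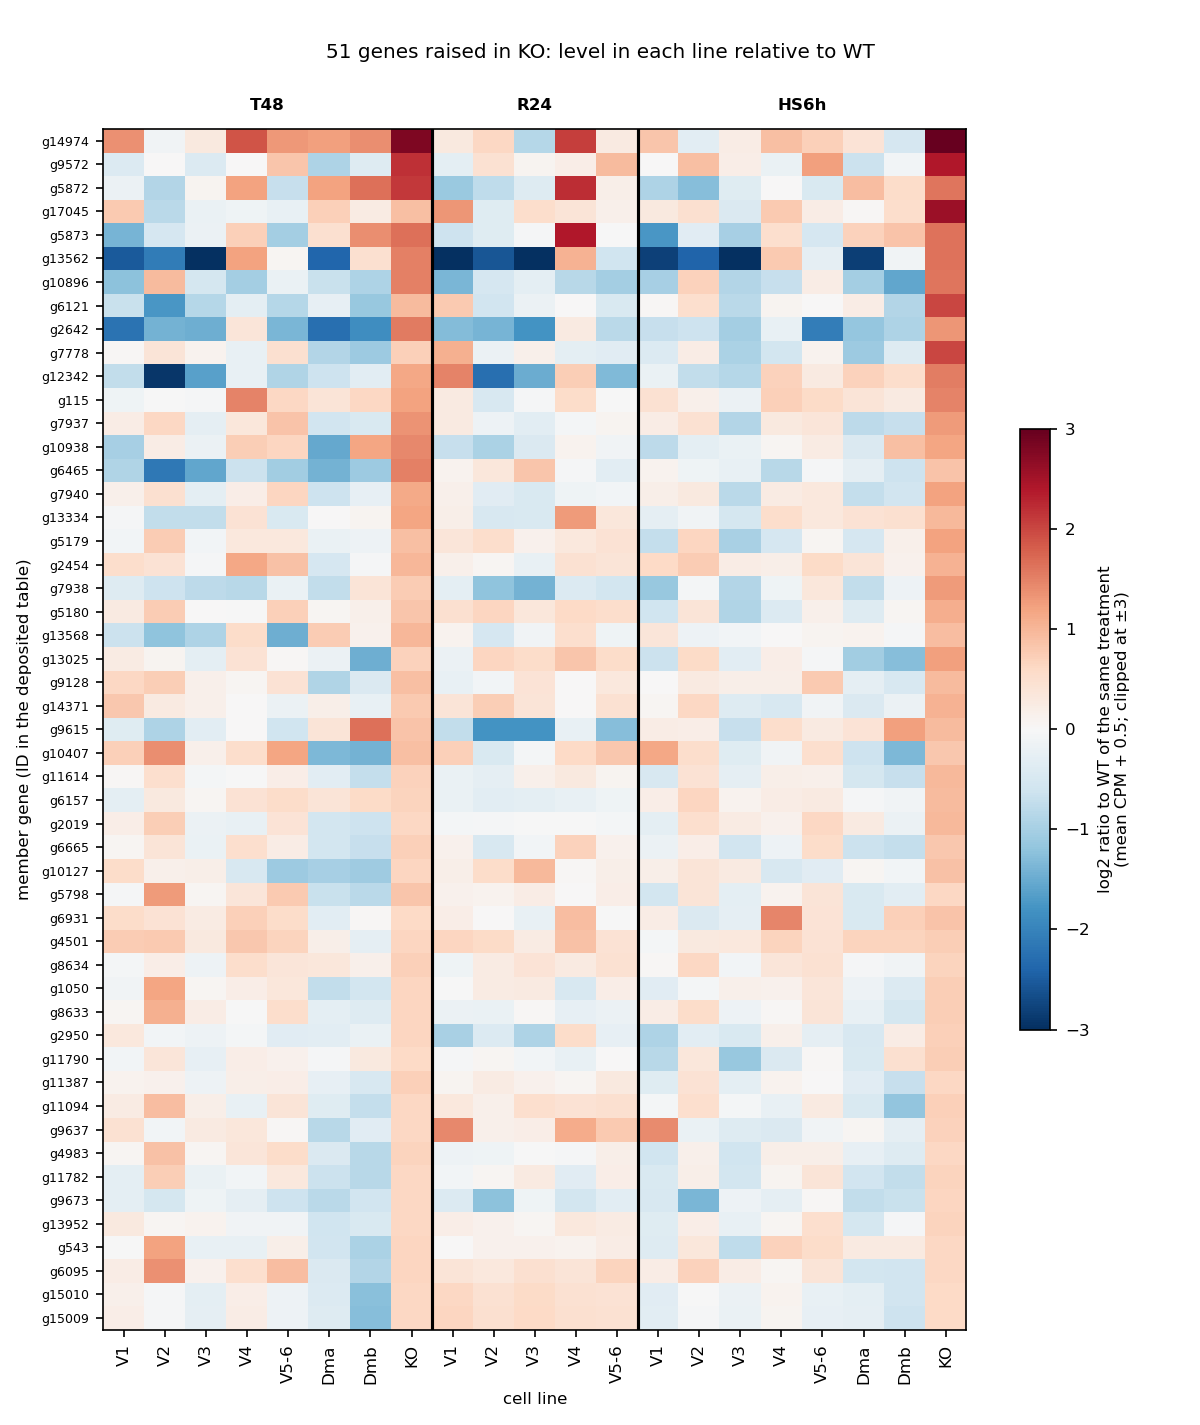
Each row is 1 of the 51 genes and each column a line at T48, R24 or HS6h. Colour gives the log2 ratio of the mean CPM + 0.5 to that of WT under the same treatment, clipped at 3 in either direction. KO columns are red throughout by the rule, and the columns of the other lines hold both red and blue cells, with g13562 among the genes that differ most from line to line.

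In trehalose, most of the 51 genes fell below their KO level in every one of the 6 lines that had no part in the choice. Dma had 43 of 51 called lower than KO, against 18.7% of all genes tested. V1, V4 and Dmb had 40 each, against 18.0%, 16.9% and 19.3%. V5-6 had 35, against 16.5%, and V2 had 30, against 19.8%. None was called higher in V1, V4 or Dma, where 19.5%, 13.0% and 19.8% of all genes were. In V4, where 29.8% of all genes were called in either direction, every call among the 51 was thus a lower one. In Dmb 1 gene (21.1% of all genes), in V5-6 1 gene (15.7%) and in V2 4 genes (18.7%) were called higher. Median differences over the 51 were -0.83 in V1, -0.62 in V2, -0.89 in V4, -0.68 in V5-6, -1.11 in Dma and -1.03 in Dmb, while those over all genes tested lay between -0.01 and 0.05. These comparisons share the KO libraries with each other and with the rule, so a chance high value in KO favours both membership and a lower call. The other candidates carry the same dependence: of those 76, 48 were lower in V1, 39 in V2, 34 in V4, 42 in V5-6, 45 in Dma and 41 in Dmb.

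Among the largest falls at T48 was that of g13562. It had 12.8, 12.5 and 16.1 CPM in V1, against 214, 225 and 265 CPM in KO, a log2 difference of -4.23 (SE 0.12, adjusted p = 6.44e-49). In Dma it had 11.5, 15.0 and 19.4 CPM (log2 -3.81, SE 0.13). V4 and Dmb stayed far closer to KO in the same gene, with 189, 189 and 189.9 CPM in V4 and 125.3, 105 and 111 CPM in Dmb. Those were still called lower, by log2 differences of -0.48 (SE 0.09) and -0.81 (SE 0.09). For g9572 the lines fell to a narrower range: means were 18.4 CPM in V1, 24.6 CPM in V2, 24.8 CPM in V4, 43.7 CPM in V5-6, 12.6 CPM in Dma and 18.5 CPM in Dmb, against 113 CPM in KO. No library of these 6 lines reached a KO library of g9572. In V2 the largest fall was that of g12342, with 1.57, 1.02 and 1.57 CPM in V2, against 32.5, 34.5 and 27.0 CPM in KO (log2 -4.50, SE 0.35, adjusted p = 2.06e-20).

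The exceptions at T48 were few. In V2, g6095, g543, g5798 and g10407 were higher than in KO. g6095 had 631, 586 and 609.6 CPM in V2, against 360.1, 373 and 371 CPM in KO (log2 0.68, SE 0.07, adjusted p = 8.98e-16). The same gene was higher in V5-6, where it had 438, 455 and 446 CPM (log2 0.18, SE 0.07, adjusted p = 0.0245). In Dmb, g9615 had 152, 179 and 193 CPM, against 92.0, 110.4 and 97.7 CPM in KO (log2 1.04, SE 0.10, adjusted p = 9.82e-15). In each of these 3 cases the line's libraries all stood above those of KO. The call of g543 in V2 (log2 0.51, SE 0.20, adjusted p = 0.0333) was lost without the filter on low counts (adjusted p = 0.0565) and with all transcripts summed (adjusted p = 0.0777).

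After heat shock the counts were as high or higher in each line. Dma had 46 of 51 called lower than KO, against 22.4% of all genes, V4 had 45, against 18.2%, V1 had 44, against 15.0%, Dmb had 43, against 24.5%, V5-6 had 40, against 10.0%, and V2 had 30, against 12.7%. Called higher were 2 genes in V1 (18.0% of all genes), 1 in V2 (14.6%), 1 in V4 (18.0%) and 0 in V5-6, Dma and Dmb (11.4%, 23.7% and 26.3%). Median differences over the 51 were -0.91 in V1, -0.58 in V2, -0.96 in V4, -0.85 in V5-6, -1.07 in Dma and -1.11 in Dmb, beside -0.02 to 0.04 over all genes. Of the other candidates, 38 of 76 were lower in V1, 33 in V2, 41 in V4, 33 in V5-6, 51 in Dma and 49 in Dmb. Whether the shares of the 51 and the 76 differ was not tested.

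g9572 had 41.7, 33.8 and 35.9 CPM in V4 at HS6h, against 209, 229 and 246 CPM in KO, a log2 difference of -2.65 (SE 0.11, adjusted p = 8.72e-31). g10896 had 0.751, 0.194 and 1.23 CPM in Dmb, against 10.8, 11.1 and 9.51 CPM in KO (log2 -3.70, SE 0.50, adjusted p = 2.94e-09). In both genes the line and KO did not overlap. The gene called higher in V4 was g6931, which had 55.7, 58.8 and 56.9 CPM in V4, against 35.4, 34.5 and 41.0 CPM in KO (log2 0.59, SE 0.14, adjusted p = 0.000385). The 2 called higher in V1 were g9637 and g10407. g10407 had 177, 169 and 200.2 CPM in V1, against 138, 162 and 132 CPM in KO (log2 0.57, SE 0.09, adjusted p = 9.95e-07). The call of g9637 in V1 (log2 1.01, SE 0.37, adjusted p = 0.0286) was lost under library totals (adjusted p = 0.0866) and with all transcripts summed (adjusted p = 0.0911). In V2 the gene called higher was again g6095, whose libraries overlapped those of KO there, with 310.4, 309 and 349.7 CPM in V2 against 309, 319.5 and 296 CPM in KO.

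**Figure D2:**
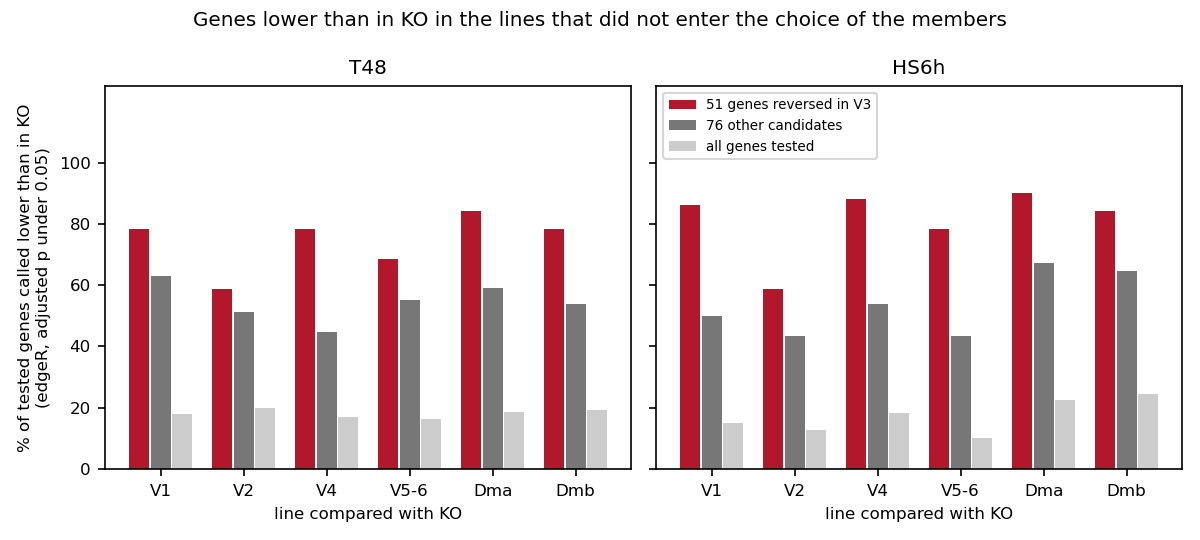
Bars give the percentage of genes called lower than in KO (edgeR, adjusted p under 0.05) at T48 on the left and HS6h on the right, for the 51 genes, the 76 other candidates and all genes tested. V2 has the lowest red bar in both panels, 30 of 51 genes each.

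Taken gene by gene over the 12 comparisons of these 6 lines with KO, 12 genes were lower in all 12, against 0.677% of all genes tested, and 28 in 10 or more, against 2.81%. The median was 10. At T48 17 genes were lower in all 6 lines, against 2.10% of all genes, and at HS6h 22 were, against 2.42%. All 12 comparisons use the KO libraries on which the genes were selected, so these counts describe the set and are no independent support. Of the 76 other candidates, which passed the same limits on KO and WT but not that on V3, 7 were lower in all 12, 17 in 10 or more, 14 in all 6 lines at T48 and 14 at HS6h. The 5 genes lower in fewer than 6 of the 12 were g4501, g9637, g6931, g2950 and g9615. The fewest, 2, belonged to g4501, the gene nearest the V3 limit. It had 15.2, 12.1 and 13.6 CPM in V1 at T48, against 11.8, 14.4 and 11.4 CPM in KO, and the 2 groups overlapped (log2 -0.02, SE 0.24, adjusted p = 0.966).

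Set against WT instead of KO, the lines separated further. The same limit that the rule put on V3, a ratio to WT of at most 5/4, was met at both treatments by 39 of 51 genes in V1, 38 in Dma and 36 in Dmb, where 68.3%, 77.1% and 73.8% of the 5972 genes with 5 CPM or more in KO met it. It was met by 25 genes in V4 (54.6% of the 5972), 23 in V5-6 (58.4%) and 19 in V2 (64.6%). As shares of the 51, these were 76.5% in V1, 74.5% in Dma, 70.6% in Dmb, 49.0% in V4, 45.1% in V5-6 and 37.3% in V2. The share was thus above that of all 5972 genes in V1 and below it in the other 5 lines, by the most in V2 and V5-6. WT libraries at T48 and HS6h are also those of the rule. A chance low value in WT raises KO/WT and the ratio of every line to WT, also the capped V3/WT. The differences between these shares were not tested. Taken over the 6 lines, 5 genes met the limit in all 6 (g6465, g9673, g2950, g15009 and g15010), against 20.4% of the 5972, 17 in 4 and 14 in 3, and g4501 met it in none. Both Drosophila lines met it together for 33 genes, 64.7% of the 51 against 65.1% of the 5972. V1, V2, V4 and V5-6 met it together for 5, 9.80% against 25.5%. CPM ratios of Dma and Dmb to WT at T48 lay low for genes in general, with medians of -0.19 and -0.30 on the log2 scale over the 5972 genes, beside -0.43 and -0.40 over the 51.

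As a single value per library, the mean log2(CPM + 0.5) of the 51 genes minus that of WT was -0.40 ± 0.08 in Dma, -0.29 ± 0.07 in Dmb, -0.26 ± 0.05 in V3, -0.07 ± 0.08 in V1, 0.07 ± 0.01 in V2, 0.10 ± 0.02 in V5-6 and 0.25 ± 0.06 in V4 at T48, against 0.98 ± 0.07 in KO (SD, n = 3 each). At HS6h it was -0.44 ± 0.04 in V3, -0.28 ± 0.05 in Dma, -0.24 ± 0.08 in V1, -0.22 ± 0.02 in Dmb, 0.10 ± 0.05 in V4, 0.10 ± 0.04 in V2 and 0.17 ± 0.02 in V5-6, against 1.10 ± 0.09 in KO. The lowest KO library stood above the highest library of every line at both treatments. V3 and KO values are fixed by the rule, the WT libraries are those of the rule, and no test was made of this mean. CPM levels also shifted for genes in general: the same mean over the 5972 genes was -0.20 in Dma, -0.28 in Dmb, 0.09 in V1, -0.04 in V2, 0.02 in V5-6 and 0.07 in V4 at T48, against -0.04 in KO. At HS6h it was 0.00 in Dma and Dmb, -0.07 in V1, -0.03 in V2, 0.13 in V5-6 and 0.16 in V4, against 0.15 in KO. At T48 Dmb thus stood at the level of genes in general, and at HS6h V4 stood above WT but below the mean of genes in general. The other candidates stayed far above WT in the same lines, between 0.99 in V2 and 1.48 in V4 at T48 and between 0.86 in Dmb and 1.28 in V5-6 at HS6h, against 1.67 and 1.88 in KO.

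**Figure D3:**
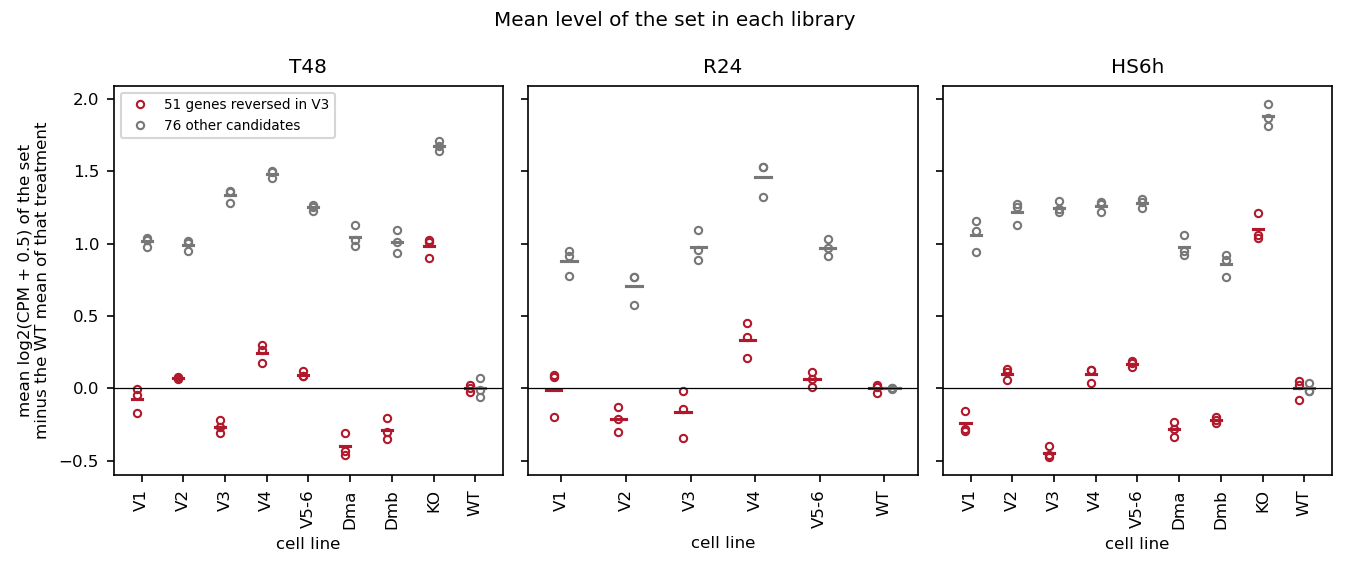
Points are libraries and bars group means of the mean log2(CPM + 0.5) over the 51 genes (red) and the 76 other candidates (grey), minus the WT mean of that treatment, at T48, R24 and HS6h. Red points of the lines lie around the WT level of 0 and grey points of the lines above 0.5, with KO highest in both colours at T48 and HS6h.

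The 6 lines differed from each other in most of the 51 genes, as they did in most genes. A test of any difference among V1, V2, V4, V5-6, Dma and Dmb called 47 of 51 at T48, against 71.1% of all genes tested, and 48 at HS6h, against 70.4%. The smallest adjusted p were those of g13562 (1.73e-54) and g6095 (4.30e-47) at T48 and of g10407 (2.15e-32) and g7937 (2.51e-28) at HS6h, by edgeR. The ratio of the highest to the lowest line mean had a median of 2.98 at T48 and 2.17 at HS6h, against 1.80 and 1.68 over the 5972 genes. The largest was that of g13562, 13.3 at T48 and 12.4 at HS6h. At T48 V2 and V4 were each the highest line in CPM for 31.4% of the 51 genes, against 21.9% and 22.0% of the 5972, and at HS6h V2 was for 33.3%, against 16.4%, and V4 for 23.5%, against 28.9%. Dmb was the lowest line for 35.3% of the 51 at T48, against 41.0% of the 5972, and Dma for 25.5%, against 20.7%. At HS6h Dmb was the lowest for 37.3%, against 26.8%, and V1 for 25.5%, against 24.4%.

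V4 against V1 at T48 had 16 of the 51 genes higher and 5 lower, where 14.8% of all genes were higher and 19.1% lower. g13562 led with a log2 difference of 3.75 (SE 0.13, adjusted p = 4.03e-44), from the values given above. g2642 had 8.23, 8.73 and 8.48 CPM in V4, against 1.19, 1.82 and 0 CPM in V1 (log2 2.99, SE 0.50, adjusted p = 5.52e-07). g17045 went the other way, with 25.7, 21.6 and 28.7 CPM in V4, against 50.1, 48.7 and 46.0 CPM in V1 (log2 -0.96, SE 0.15, adjusted p = 1.23e-07). At HS6h the split of V4 against V1 was 12 higher and 10 lower, beside 15.4% and 19.3% of all genes. Under library totals that split became 23 higher and 4 lower, and that scaling moved the median of all genes by 0.25. g13562 was higher in V4 at HS6h too (log2 3.59, SE 0.24, adjusted p = 1.05e-20), with 38.6, 38.1 and 40.4 CPM in V4, against 3.31, 1.84 and 3.13 CPM in V1. g10407 was lower, with 79.7, 75.6 and 70.5 CPM in V4, against 177, 169 and 200.2 CPM in V1 (log2 -1.53, SE 0.10, adjusted p = 4.19e-21).

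Dmb against Dma at T48 had 11 of the 51 genes higher and 3 lower, where 11.5% of all genes were higher and 8.87% lower, 20.4% in all. Under library totals the split was 10 higher and 6 lower, with the median of all genes moved by -0.11. At HS6h 11 were higher and 6 lower, where 11.8% and 12.5% of all genes were. The pair of genes that led at both treatments was g13562 and g10938. g13562 had 125.3, 105 and 111 CPM in Dmb at T48, against 11.5, 15.0 and 19.4 CPM in Dma (log2 3.00, SE 0.13, adjusted p = 3.28e-35). g10938 had 119, 152 and 136 CPM in Dmb, against 22.0, 21.6 and 17.4 CPM in Dma (log2 2.85, SE 0.12, adjusted p = 2.72e-35). At HS6h their differences were 2.92 (SE 0.24, adjusted p = 4.04e-16) and 1.39 (SE 0.23, adjusted p = 3.17e-06). No Dma library reached a Dmb library in either gene.

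g13562 thus gave the widest range of any of the 51 genes over the lines. In order of mean at T48 its levels were 6.55 CPM in V3, 13.8 CPM in V1, 15.3 CPM in Dma, 18.6 CPM in V2, 84.5 CPM in V5-6, 114 CPM in Dmb and 189 CPM in V4, against 235 CPM in KO and 81.7 CPM in WT. V1 and Dma overlapped between libraries, as did Dma and V2, and V5-6 overlapped with WT. At HS6h the lines split alike, with V1, V2, V3 and Dma between 0.738 and 5.78 CPM in every library and V4, V5-6 and Dmb between 16.2 and 40.4 CPM, against 66.4 to 72.1 CPM in KO and 18.6 to 26.0 CPM in WT.

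**Figure D4:**
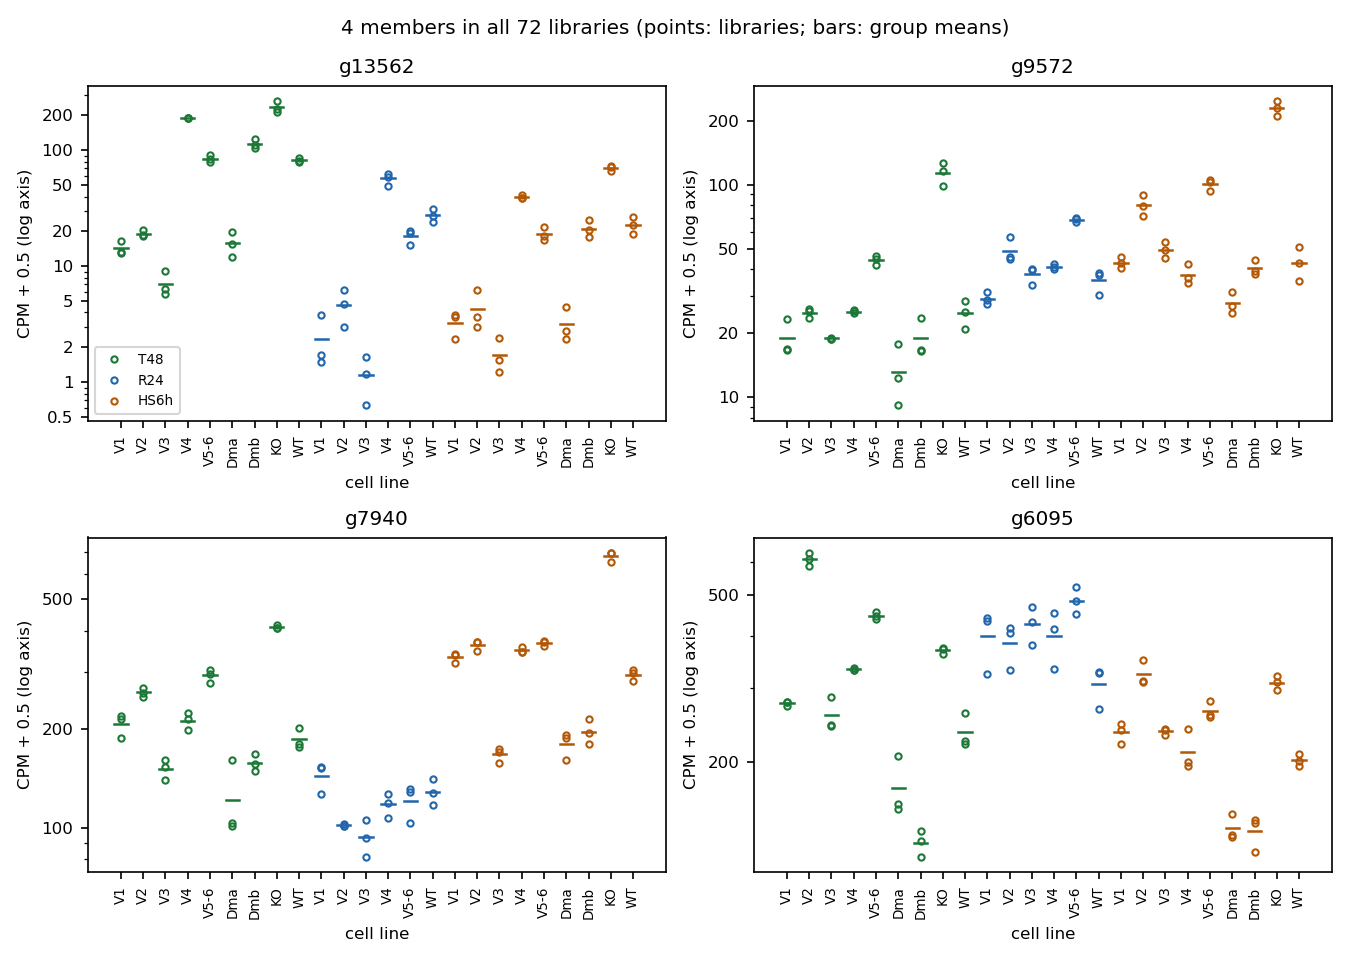
Points are the 72 libraries and bars the group means of g13562, g9572, g7940 and g6095, as CPM + 0.5 on a log axis. In g13562 the V4 libraries at T48 sit close to KO and those of V1, V2, V3 and Dma far below WT. In g9572 KO stands above all lines of the same treatment, and in g6095 the V2 libraries at T48 exceed KO.

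After rehydration the comparison was with WT, in libraries that had no part in the choice. The 51 genes split both ways in every line. V1 had 11 higher and 8 lower than WT, where 11.0% of all genes were higher and 9.72% lower (20.8% in all). V2 had 12 and 14, against 17.4% and 15.9% (33.4%), V3 had 8 and 11, against 15.3% and 15.2% (30.5%), and V4 had 10 and 11, against 12.4% and 14.9% (27.3%). V5-6 had 5 and 8, against 7.69% and 8.98% (16.7%). The share of the 51 called, from 13 to 26 genes, was above that of all genes in each line, and medians of the 51 lay between -0.11 in V2 and 0.06 in V1. By the rule the 51 averaged 5 CPM or more in KO, while all genes tested had only to pass the filter on low counts. These shares, like those of the other tests, are thus not matched for level. The balance of directions rested on scaling in V4 and V5-6: under library totals it was 18 higher and 4 lower in V4 and 10 and 4 in V5-6, with the median of all genes moved by 0.25 and 0.15. It turned to 8 higher and 9 lower in V1 without V1 replicate 3, and to 10 higher and 9 lower in V4 without WT replicate 2 or 3. In V2 it was 8 higher and 9 lower without WT replicate 3, and fitted on V5-6 and WT alone it was 8 and 12 in V5-6. Over the 5 lines, which share the WT libraries, 10 genes were called in none, against 43.1% of all genes tested, 11 in both directions, against 9.52%, and 0 in the same direction in all 5, against 2.68%. The other candidates were called higher far more often than lower in the same comparisons, with 31 and 7 of 76 in V1, 29 and 13 in V2, 35 and 8 in V3, 46 and 3 in V4 and 29 and 7 in V5-6. Their V3 level at T48 or HS6h set these 76 apart from the 51, so the contrast between the sets in V3 is not independent of that choice.

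The R24 libraries of V3 did not enter the rule, but those of the same line at T48 and HS6h did. The median difference of the 51 genes between V3 and WT was -0.05, beside 0.01 over all genes. The largest fall was that of g13562, with 0.133, 0.681 and 1.14 CPM in V3, against 23.8, 31.0 and 26.6 CPM in WT (log2 -5.34, SE 0.34, adjusted p = 1.69e-11). g9615 was also lower, with 11.6, 12.4 and 13.7 CPM in V3, against 38.6, 46.5 and 48.2 CPM in WT (log2 -1.87, SE 0.22, adjusted p = 6.27e-07). g6465 was higher, with 400.0, 432 and 448 CPM in V3, against 254, 232 and 234 CPM in WT (log2 0.79, SE 0.07, adjusted p = 8.22e-09). At T48, where the rule fixed the ratio, g6465 had had 65.1, 67.1 and 53.9 CPM in V3, against 196, 164 and 190.2 CPM in WT.

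Other lines at R24 had their own leading genes. In V4, the ID neighbours g5873 and g5872 were higher: g5873 had 34.4, 24.8 and 33.9 CPM in V4, against 6.56, 5.06 and 4.67 CPM in WT (log2 2.26, SE 0.26, adjusted p = 5.54e-07), and g5872 had 34.4, 21.8 and 25.2 CPM, against 4.43, 5.88 and 6.05 CPM (log2 2.05, SE 0.26, adjusted p = 2.21e-06). Neither exceeded 7.25 CPM in a library of another line at R24. In V1, g12342 had 45.0, 45.0 and 50.1 CPM, against 14.9, 18.3 and 15.9 CPM in WT (log2 1.45, SE 0.22, adjusted p = 2.52e-05). The same gene fell in V2, with 3.61, 4.27 and 1.22 CPM (log2 -2.41, SE 0.29, adjusted p = 7.47e-07), and in V5-6, with 5.53, 5.90 and 7.33 CPM (log2 -1.54, SE 0.26, adjusted p = 0.000165). In V5-6, g9572 had 68.9, 66.4 and 68.3 CPM, against 38.1, 37.0 and 29.9 CPM in WT (log2 0.80, SE 0.13, adjusted p = 7.36e-05). The gene called higher in 4 lines was g6095, and those called lower in 4 were g13562, g9615 and g9673. g6095 missed the threshold in V4, where it had 452, 333 and 415 CPM, against 328, 266 and 325 CPM in WT (log2 0.13, SE 0.10, adjusted p = 0.339). g13562 was the exception to its own pattern in V4, where it was higher than WT, with 62.4, 49.1 and 58.9 CPM (log2 0.81, SE 0.20, adjusted p = 0.00421).

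Within V1, V2, V4 and V5-6, none of which entered the rule, from 52.9% to 76.5% of the 51 genes were called between treatments, where 53.9% to 63.6% of all genes were. At R24 against T48, 25 were higher and 9 lower in V1, where 58.8% of all genes were called, 20 and 18 in V2 (62.7%), 24 and 13 in V4 (53.9%) and 23 and 15 in V5-6 (60.0%). Under library totals the split was 33 and 9 in V4 and 29 and 10 in V5-6. In V2 it turned to 17 and 18 without the T48 library of V2 replicate 3. At HS6h against T48, 16 were higher and 11 lower in V1 (60.2% of all genes called), 22 and 17 in V2 (63.4%), 21 and 15 in V4 (63.6%) and 21 and 11 in V5-6 (62.8%). Under library totals those splits turned to 8 and 25, 14 and 23, 11 and 20, and 15 and 19, with the median of all genes moved by -0.61, -0.47, -0.38 and -0.38. Directions after heat are therefore relative to TMM scaling.

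Under TMM scaling, calls in the same direction in all 4 lines lay near the share of genes in general at R24 and for higher calls at HS6h. For lower calls at HS6h they lay below it under that scaling. At R24, 11 were higher than at T48 in each of the 4, against 17.2% of all genes, and 9 lower, against 16.4%, of which 11 and 8 held under library totals. Library totals gave 16 higher and 8 lower in all. At HS6h, 9 were higher in each, against 17.6%, and 5 lower, against 17.6%, of which 7 and 5 held under library totals. There library totals gave 7 higher and 12 lower in all, so the low number of lower calls rests on TMM scaling. The shares of all genes under library totals were not taken. g9615 had 5.35, 4.54 and 4.67 CPM in V4 at HS6h, against 55.3, 55.2 and 57.7 CPM at T48 (log2 -3.14, SE 0.26, adjusted p = 1.08e-14). g10938 fell with it, to 11.8, 12.0 and 8.29 CPM at HS6h in V4, against 92.0, 93.5 and 112 CPM at T48 (log2 -2.83, SE 0.16, adjusted p = 2.37e-20). g6121 rose at R24, with 31.3, 29.5 and 37.8 CPM in V1, against 4.27, 4.32 and 2.92 CPM at T48 (log2 2.98, SE 0.26, adjusted p = 5.93e-14). g13562 was lower in all 4 lines in both comparisons, by log2 differences of -2.91 to -2.01 at R24 and -1.90 to -1.73 at HS6h.

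**Figure D5:**
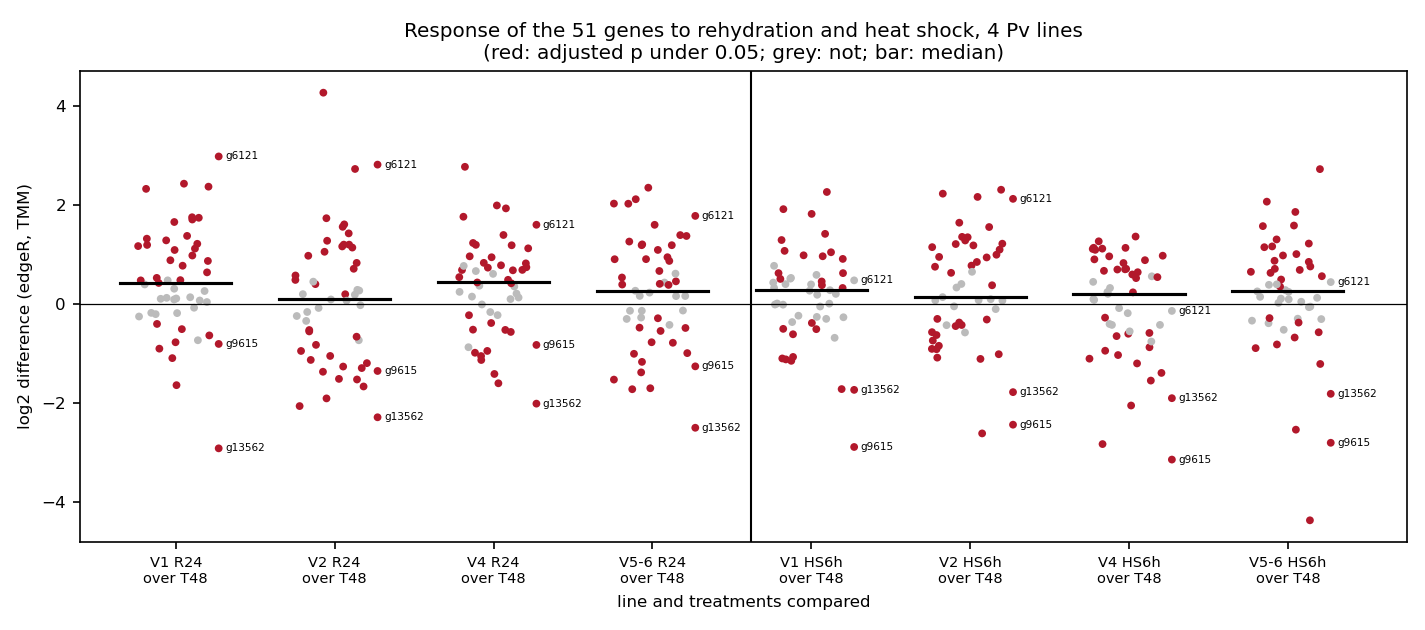
Each point is 1 of the 51 genes in V1, V2, V4 or V5-6, with its log2 difference of R24 over T48 on the left and of HS6h over T48 on the right (edgeR, TMM), in red where adjusted p is under 0.05, and bars give medians. Medians lie between 0.09 and 0.44, while g13562 and g9615 lie below 0 in all 8 columns.

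What the genes share beyond the rule is limited by the lack of names. They had a median of 4 annotated transcripts per gene, as did the 5972 genes with 5 CPM or more in KO. A single transcript was annotated for 6 of the 51, 11.8%, against 14.4% of the 5972. The other candidates had a median of 2, and 23 of 76 had a single one. Runs of near IDs held 11 of the 51: g5179 and g5180, g5872 and g5873, g7937, g7938 and g7940, g8633 and g8634, and g15009 and g15010. The share of all genes in such runs was not taken, so nothing is read from this count. Whether IDs follow position in the genome is not given in the sources used here. Counts of g15009 and g15010 were almost the same, equal in 12 of 72 libraries and with a ratio between 1.00 and 1.10, so the values of the pair are uncertain as to which gene the reads came from and may stand for 1 gene. g7937 and g7940, the 2 highest of the 51 in KO by average CPM, were also nearly proportional. The median ratio of g7937 to g7940 counts, each plus 1, was 0.73, with an SD of the log2 ratio of 0.13 over the 72 libraries. Whether reads are shared between them was not tested, so their values are uncertain in the same way. Over the 72 libraries, log2 levels correlated with a Pearson r of 0.999 for g15009 and g15010, 0.85 for g5872 and g5873, 0.80 for g5179 and g5180, 0.76 for g7938 and g7940, 0.66 for g7937 and g7938 and 0.06 for g8633 and g8634, as a description over libraries that share lines and treatments.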

How the data were processed

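The 72 libraries were made from polyA RNA, 3 per group. The authors deposited raw counts per transcript in 1 table. Tools named in the submitters' processing notes are FastQC 0.11.9, Trimmomatic 0.39, HISAT2 2.2.1 and HTSeq 2.0.9; genome build, annotation and strand setting are not given in the sources used here, so overlapping and antisense genes may share reads.

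The 65235 transcript rows belong to 17156 genes, and each gene was taken as its row with the highest total. The 5 special rows were left out; reads without a feature came to 38.3% to 46.5% of gene counts plus such reads. Levels and the rule use CPM by gene count totals. Tests on these counts used R 4.3.3 with edgeR 4.0.16 (limma 3.58.1 loaded): filterByExpr, TMM and the quasi-likelihood test, with Benjamini-Hochberg adjusted p under 0.05. Fits held 27 libraries and 8255 genes at T48, 27 and 8264 at HS6h, 18 and 8929 at R24, and, across treatments in V1, V2, V4 and V5-6, 36 libraries and 8925 genes. These gave 31 comparisons. Scripts were tested on simulated counts.

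Labels do not say whether libraries of a group come from separate cultures, so the spread behind the p-values may be technical. None of the IDs matched the reference table of 17863 loci. Genes named per comparison were up to 2 higher and 2 lower: the largest log2 differences among called genes whose libraries did not overlap with 1 group or both averaging at least 5 CPM. The tests over 6 lines name the 2 smallest p. For the whole set they were those with extreme levels or ratios. Fewer are given in places, genes of counts of 5 or fewer are also named, and g13562, g9572, g7940, g6095, g6465 and g4501 are followed across comparisons; these additions were chosen after their values were seen. The members, their lists and tests were chosen with earlier results of these data known. Alternatives were DESeq2 1.42.0, RLE size factors, library totals, no low-count filter, summed transcripts, only the groups compared, other limits of the rule and each library left out.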

Additional observations from a re-analysis of the deposited data

Results flagged for a closer look

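In V5-6 against KO, g6095 moved in opposite directions at the 2 treatments, with no overlap between the libraries of the line and of KO at either. At T48 it had 438, 455 and 446 CPM in V5-6, against 360.1, 373 and 371 CPM in KO (log2 0.18, edgeR adjusted p = 0.0245). At HS6h it had 256, 278 and 259 CPM in V5-6, against 309, 319.5 and 296 CPM in KO (log2 -0.21, edgeR adjusted p = 0.0215).

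In V4 against V1, g17045 was lower at T48, with 25.7, 21.6 and 28.7 CPM in V4, against 50.1, 48.7 and 46.0 CPM in V1 (log2 -0.96, edgeR adjusted p = 1.23e-07). At HS6h it had 26.0, 37.2 and 32.1 CPM in V4, against 23.9, 17.8 and 25.6 CPM in V1, every V4 library above every V1 library, and was not called (log2 0.25, edgeR adjusted p = 0.223). For both genes the difference between treatments was not tested.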

How the results depend on the processing

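Depth was lowest at T48, and genes near 1 CPM have wide errors. Counts of the 51 genes called lower or higher than KO kept their direction, and stayed within 1.5 times, in the 12 comparisons of lines with KO under DESeq2, RLE size factors, library totals, no low-count filter, summed transcripts, only the groups compared, and each library left out. Under library totals the more frequent direction turned in 6 comparisons: 22 genes were called in V4 against WT and 14 in V5-6 against WT at R24, and 33 in V1, 37 in V2, 31 in V4 and 34 in V5-6 at HS6h against T48. With all transcripts summed, V4 against WT at R24 turned with 18 called. With only the groups compared, 20 were called in V5-6 against WT at R24. The cause was not tested. Leaving out 1 library gave 14 to 17 called in V1 against WT at R24, 17 to 23 in V2 against WT, 18 to 24 in V4 against WT and 34 to 36 in V2 at R24 against T48, with turns in V1, V4 and V2 as given with the results. The rule itself gave 44 to 60 genes with 1 library left out, 12 with KO/WT above 2 and 29 with V3/WT at most 1. With all transcripts summed it gave 32, of which 18 were among the 51. There 33 of the 51 fell under the minimum of 5 CPM, with CPM taken over the totals of all transcript rows. Why they fell was not tested. With those sums over gene count totals, chosen after seeing the data, it gave 62, of which 47 were among the 51. Leaving out g15010, also chosen after seeing the data, turned no comparison. Of the single genes named per comparison none changed sign. No paired analysis was possible because the columns carry no replicate number that is shared between groups.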
